A study of Mus musculus with 34 samples.

Results

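The 32 genes described here encode coagulation and fibrinolysis factors, the plasma and vessel wall proteins that form blood clots and dissolve them. They were chosen by gene symbol, and all 32 had a row among the 35976 symbols of the deposited expression table. Their mRNA was measured by RNA sequencing in 34 mouse livers, 1 library per liver. The guide RNA was directed against Bcl6 in 5 livers, Irs1 in 5, Smyd2 in 6, Srebf1 in 5 and Tbx3 in 7, and 6 control livers received a guide against GFP (sgGFP, 4 livers) or LacZ (sgLacZ, 2 livers), sequences that the mouse genome does not carry. Every mouse, controls included, was C57BL/6 and homozygous both for TetO-Cas9, a Cas9 gene under tetracycline control, and for Rosa-rtTA, the transactivator that switches it on with doxycycline. All received an adeno-associated virus (AAV) with the guide RNA and ate a Western Diet, rich in fat and sugar, for 3 months. The groups are called knockouts (KO) after their labels. The Rosa locus is active in most cell types, and the sources used here give neither the share of cells edited nor the guide sites, sex or age. Each numbered liver is taken as 1 animal. Should livers share an animal, p-values would measure the spread between samples, which may be technical. The comparisons ask which of these mRNAs were higher or lower after each gene was targeted. All 5 use the same 6 control livers.

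As background, clotting proceeds as a cascade in which 1 protease activates the next. Tissue factor and factor VII, or the contact proteases, lead to active factor X, which with factor V turns prothrombin into thrombin, and thrombin turns fibrinogen into fibrin. Antithrombin, heparin cofactor II, tissue factor pathway inhibitor and the protein C system hold the cascade back, and plasmin, made from plasminogen, dissolves fibrin. Hepatocytes make most of the soluble factors, and the vitamin K dependent ones need carboxylation of glutamate residues before secretion. Liver endothelial cells are a main source of factor VIII, endothelial cells also make von Willebrand factor, thrombomodulin and tissue plasminogen activator, and macrophages and platelets carry the A subunit of factor XIII.

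Values are FPKM, a measure of fragments that is divided by transcript length and library size. All 32 genes passed the filter on low values, which asked for at least 1 FPKM in 5 libraries. In control livers the highest level was that of Kng1, a kininogen gene, with 18879 ± 1716 FPKM (SD, n = 6). The fibrinogen chains followed, with 4465 ± 467 FPKM for Fga, 3837 ± 428 for Fgg and 3325 ± 467 for Fgb. Serpinc1 (antithrombin) had 2119 ± 321 FPKM and Proc (protein C) 1846 ± 285 FPKM. From Hrg at 1104 ± 245 FPKM the control means ran down without a break through Plg, F10, Kng2, F5, F2, Proz, Hgfac, Cpb2, F9, F13b, F8, F12, Serpind1, Pros1, F11, Serpinf2, Klkb1 and Tfpi to F7 at 65.9 ± 12.6 FPKM. A gap separated F7 from 6 low genes. Vwf had 16.2 ± 2.88 FPKM and Plau 8.91 ± 7.05 FPKM. F13a1 had 6.97 ± 4.63 FPKM and Plat 4.13 ± 2.03 FPKM. F3 had 2.84 ± 1.12 FPKM and Thbd 2.80 ± 1.23 FPKM. These 6 are known mainly from endothelial cells, macrophages and other cells than hepatocytes. Of the 31 pairs of neighbours in this order, 27 overlapped between their lowest and highest control livers. Gaps lay below Kng1, below Fgb, below Proc and below F7. For 21 of the 32 genes the deposited values reach more than 15 significant digits. They were read from this as sums of several values, which the sources do not state. The order of levels between genes is therefore approximate. The coefficient of variation over control livers had a median of 14.1% for the 25 genes above 100 FPKM and of 46.5% for the 6 genes under 20 FPKM. The low genes thus varied more between control livers.

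The low values implied a depth of 2110000 to 3130000 counted reads (median 2610000 over the 34 libraries). This depth had the most matches to transcript lengths (2966, against 2112 at the next best depth), so it is approximate. None of the 5 targeted mRNAs passed the test in its own knockout, with adjusted p between 0.0611 (Srebf1) and 0.98 (Bcl6), and mRNA level does not measure editing of the gene. Srebf1 had 1908, 516, 499, 527 and 632 FPKM in Srebf1 KO livers 1 to 5, against 1095 to 2177 FPKM in control livers. The library labelled Srebf1 KO replicate 1 thus lay within the control range. The 2 calls of members in that knockout, Proc and Plg, are also given without it. Other Srebf1 KO values include it unless stated. Tbx3 KO replicate 7 stood apart from the other 6 Tbx3 KO livers for several of these genes, as given below. Between the 2 control guides, limma called 0 of the 32 genes after Benjamini-Hochberg adjustment, where 0.0104% of all 19295 tested genes passed. At an unadjusted p under 0.05, 3 of the 32 differed between sgLacZ and sgGFP. The share of all genes at that level was not counted. Of the 3 members, Proc was 0.39 higher on the log2 scale in sgLacZ (SE 0.17, adjusted p = 0.672) and F2 0.33 higher (SE 0.15, adjusted p = 0.7). Serpinf2 was 0.45 lower (log2 difference -0.45, SE 0.17, adjusted p = 0.622).

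Clotting factor mRNAs were higher in Bcl6 KO and Irs1 KO livers than in control livers, across most steps of the cascade. In Bcl6 KO livers 15 of the 32 genes rose and 0 fell. Over all tested genes, 2.95% rose and 3.19% fell. In Irs1 KO livers 16 rose and 3 fell, where 3.24% of all genes rose and 7.61% fell. Tbx3 KO livers had 6 higher and 1 lower, against 1.17% and 1.37% of all genes. Srebf1 KO livers had 2 higher (Proc and Plg) and 0 lower, against 0.197% and 0.181% of all genes. In Smyd2 KO livers 0 of the 32 passed in either direction, where 0% of all genes passed either higher or lower. Calls are limma on log2(FPKM + 1), two-sided, with a Benjamini-Hochberg adjusted p under 0.05 over the 19295 tested genes. In a bulk sample fewer cells of a type and less RNA per cell cannot be told apart.

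The median log2 change over the 32 genes was 0.47 in Bcl6 KO livers, against -0.07 over all tested genes. It was 0.32 in Irs1 KO livers (all genes -0.12), 0.14 in Smyd2 KO livers (all genes 0), 0.21 in Srebf1 KO livers (all genes -0.05) and 0.24 in Tbx3 KO livers (all genes -0.06). Every Bcl6 KO liver lay above every control liver for 13 of the 32 genes and below for 1, where 2.35% and 1.92% of all genes did so. The same held for 15 and 3 genes in Irs1 KO livers (2.21% and 5.24% of all genes). It held for 0 and 0 genes in Smyd2 KO livers (0.187% and 0.161%). For Srebf1 KO livers it held for 2 and 0 genes (0.793% and 1.16%) and for Tbx3 KO livers for 2 and 0 genes (0.384% and 0.446%). The 7 genes F3, F8, F9, F13b, Thbd, Plau and Cpb2 passed in none of the 5 comparisons.

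**Figure D1:**
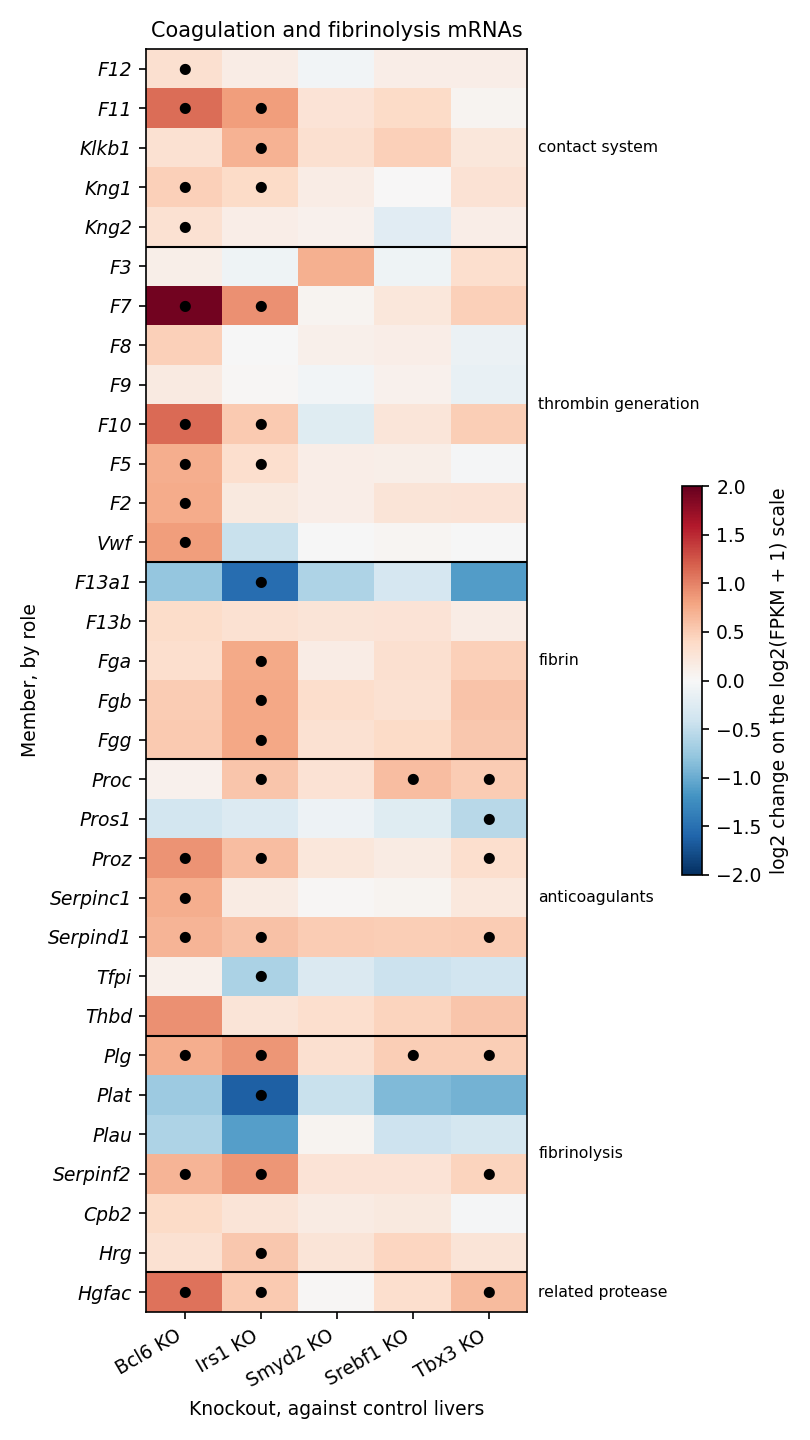
Log2 change of each of the 32 genes (rows, grouped by role) in each knockout (columns) relative to the 6 control livers, on the log2(FPKM + 1) scale, with a dot where the adjusted p was under 0.05. The Bcl6 KO column has 15 dots, all higher, and the Irs1 KO column has 16 higher and 3 lower, the 3 being F13a1, Tfpi and Plat.

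The split of calls depends on how libraries are scaled. Higher calls made up 48.1% of all Bcl6 KO calls as deposited, 66.2% with median scaling and 59.3% with quantile normalization. For Irs1 KO the shares were 29.8%, 69.4% and 49.3%, for Srebf1 KO 52.1%, 70.7% and 57.7%, and for Tbx3 KO 45.9%, 69.8% and 49.6%. Median scaling moved the median change of all genes to 0.11 in Irs1 KO, 0.08 in Srebf1 KO and 0.07 in Tbx3 KO livers. Among the 32 genes, Bcl6 KO had 15 higher and 0 lower under both scalings. Irs1 KO had 21 higher and 2 lower with median scaling, and 10 higher and 2 lower with quantile normalization.

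Hepatocyte markers moved with these genes. Of 18 hepatocyte markers, 9 rose and 0 fell in Bcl6 KO livers, with a median log2 change of 0.45, and 8 rose and 0 fell in Irs1 KO livers, with a median of 0.34. Tbx3 KO had 2 higher and 1 lower, and Srebf1 KO and Smyd2 KO had 0 called. Of all tested genes, 2.95% rose and 3.19% fell in Bcl6 KO livers, and 3.24% and 7.61% in Irs1 KO livers. The shares were 1.17% and 1.37% in Tbx3 KO, 0.197% and 0.181% in Srebf1 KO and 0% in Smyd2 KO livers. The summed level of the 18 markers ran over 227506 to 294186 FPKM in Bcl6 KO livers, 155918 to 192566 in Irs1 KO, 141629 to 177928 in Smyd2 KO, 153319 to 186699 in Srebf1 KO and 142871 to 164761 in Tbx3 KO livers, against 122841 to 158635 FPKM in control livers. Such sums give most weight to the most abundant markers, so they can move further than the median marker. No marker was at 0 in every library. The part of these markers in the results was not tested.

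The contact system starts clotting on charged surfaces, and 4 of its 5 genes rose in Bcl6 KO and 3 in Irs1 KO livers, with none called in the other knockouts. F11, the factor XI protease, had 676, 658, 382, 478 and 296 FPKM in Bcl6 KO livers and 431, 406, 401, 387 and 317 FPKM in Irs1 KO livers. Control livers ran from 157 to 314 FPKM with a median of 212. All 5 Irs1 KO livers and 4 of 5 Bcl6 KO livers lay above every control liver. The log2 change was 1.12 in Bcl6 KO (SE 0.21, adjusted p = 0.000434) and 0.83 in Irs1 KO (SE 0.21, adjusted p = 0.00981). Klkb1, plasma prekallikrein, had 218, 246, 212, 217 and 241 FPKM in Irs1 KO livers, against 124 to 150 FPKM (median 140) in control livers. It rose by 0.70 on the log2 scale (SE 0.13, adjusted p = 0.000929). In Bcl6 KO livers Klkb1 ran from 151 to 203 FPKM, and in Srebf1 KO livers from 158 to 246 FPKM. Both ranges lay above every control liver, yet neither passed the test (log2 changes 0.31 and 0.47, adjusted p = 0.186 and 0.107). F12, factor XII, had 332 to 376 FPKM in Bcl6 KO livers (median 340), against 247 to 312 FPKM (median 290) in control livers, a log2 change of 0.32 (SE 0.07, adjusted p = 0.00351, or 0.0634 with the 2 groups fitted alone).

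Kng1 ran from 20872 to 31487 FPKM in Bcl6 KO livers (log2 change 0.48, adjusted p = 0.00171) and from 21396 to 26887 FPKM in Irs1 KO livers (0.39, adjusted p = 0.01), against 17341 to 21241 FPKM in control livers. Bcl6 KO livers overlapped the control livers and Irs1 KO livers did not. With quantile normalization neither Kng1 call passed (adjusted p = 0.395 in Bcl6 KO and 0.929 in Irs1 KO). Kng2, the second mouse kininogen gene, had 1068 to 1480 FPKM in Bcl6 KO livers, against 926 to 1260 FPKM in control livers, a log2 change of 0.31 (SE 0.10, adjusted p = 0.0487). This call was lost under 15 of 20 alternatives (adjusted p up to 0.182), 8 of them the removal of 1 liver (Bcl6 KO replicate 1, 2 or 3, sgGFP replicate 1, 3 or 4, or either sgLacZ liver). Kng1 and Kng2 are near copies that may share reads, so their split is uncertain.

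Of the 8 genes of initiation and thrombin generation, 5 rose in Bcl6 KO livers and 3 in Irs1 KO livers, and none passed in the other knockouts. The highest change of the 32 genes was that of F7, factor VII, the protease that starts clotting with tissue factor. F7 had 348, 277, 171, 350 and 168 FPKM in Bcl6 KO livers, and 128, 121, 137, 124 and 107 FPKM in Irs1 KO livers. Control livers had 45.3 to 78.4 FPKM with a median of 68.5. Every liver of both knockouts lay above every control liver. The log2 change was 1.93 in Bcl6 KO, a 3.81-fold change (SE 0.20, adjusted p = 2.45e-08), and 0.91 in Irs1 KO (SE 0.20, adjusted p = 0.00414). Tbx3 KO livers had 58.9 to 144 FPKM (median 86.2), and 5 of 7 lay above every control liver, but the change did not pass (log2 change 0.48, adjusted p = 0.172).

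F10, factor X, which cleaves prothrombin, had 2314, 2271, 1908, 2990 and 2106 FPKM in Bcl6 KO livers. Irs1 KO livers had 1390, 1360, 1610, 1549 and 1629 FPKM, and control livers 785 to 1277 FPKM with a median of 1068. Neither knockout overlapped the control livers. The log2 change was 1.14 in Bcl6 KO (SE 0.16, adjusted p = 1.08e-05) and 0.53 in Irs1 KO (SE 0.16, adjusted p = 0.033). The Irs1 KO call was lost under 7 of 20 alternatives, 6 of them the removal of 1 liver (Irs1 KO replicate 3, 4 or 5, or sgGFP replicate 1, 2 or 3), with adjusted p up to 0.0907.

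F5, factor V, the cofactor of factor X, had 1854, 1679, 1392, 1883 and 1492 FPKM in Bcl6 KO livers and 1340, 1267, 1153, 1210 and 1331 FPKM in Irs1 KO livers. Control livers had 870 to 1153 FPKM with a median of 1014. All Bcl6 KO livers and 4 of 5 Irs1 KO livers exceeded every control liver. F5 rose by 0.73 in Bcl6 KO (SE 0.08, adjusted p = 1.27e-07) and by 0.34 in Irs1 KO (SE 0.08, adjusted p = 0.00812, or 0.0605 with quantile normalization). F2, prothrombin, had 1661, 1606, 1384, 1673 and 1299 FPKM in Bcl6 KO livers, against 726 to 1111 FPKM (median 907) in control livers. The groups did not overlap, and the log2 change was 0.74 (SE 0.11, adjusted p = 1.57e-05).

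F8, factor VIII, had 415 to 579 FPKM in Bcl6 KO livers, against 303 to 416 FPKM in control livers, and did not pass (log2 change 0.47, adjusted p = 0.0529). F9, factor IX, had 648 to 734 FPKM in Bcl6 KO livers, within the control range of 421 to 746 FPKM. F3, tissue factor, was at a low level, with 3.79 to 8.19 FPKM in Smyd2 KO livers and 1.68 to 4.42 FPKM in control livers (log2 change 0.71, adjusted p = 0.646).

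F7, F10 and Proz (protein Z) lie side by side on the plus strand of chromosome 8, from 13026034 to 13076026 (GRCm38, GENCODE M21), within 49993 bases. The 250 bases before the RefSeq start (GRCm38.p6) of each are shown because these 3 neighbours rose in both Bcl6 KO and Irs1 KO livers, beside that of Hgfac, which lies on another chromosome and rose in both as well. Capitals mark a match to 1 of 6 motifs, searched on both strands, that lies wholly before the start.
F7 (chr8:13025784-13026033, plus strand): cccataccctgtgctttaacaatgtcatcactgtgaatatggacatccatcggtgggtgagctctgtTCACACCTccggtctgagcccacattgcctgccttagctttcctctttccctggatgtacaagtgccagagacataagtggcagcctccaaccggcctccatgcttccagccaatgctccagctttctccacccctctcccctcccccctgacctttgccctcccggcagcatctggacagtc
F10 (chr8:13037058-13037307, plus strand): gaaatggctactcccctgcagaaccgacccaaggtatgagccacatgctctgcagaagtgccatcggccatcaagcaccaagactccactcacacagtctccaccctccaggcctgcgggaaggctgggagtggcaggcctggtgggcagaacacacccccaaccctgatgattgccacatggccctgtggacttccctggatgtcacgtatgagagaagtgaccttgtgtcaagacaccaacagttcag
Proz (chr8:13060658-13060907, plus strand): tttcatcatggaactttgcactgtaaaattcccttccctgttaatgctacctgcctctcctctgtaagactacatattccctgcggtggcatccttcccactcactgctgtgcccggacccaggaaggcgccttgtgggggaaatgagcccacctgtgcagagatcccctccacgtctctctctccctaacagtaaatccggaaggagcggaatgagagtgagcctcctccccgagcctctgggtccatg
Hgfac (chr5:35041259-35041508, plus strand): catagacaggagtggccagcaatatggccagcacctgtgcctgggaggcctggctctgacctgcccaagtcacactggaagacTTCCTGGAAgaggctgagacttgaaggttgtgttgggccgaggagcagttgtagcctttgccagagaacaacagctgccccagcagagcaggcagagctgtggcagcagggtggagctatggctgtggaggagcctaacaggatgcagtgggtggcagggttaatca
The windows searched reached from 250 bases before to 50 after the start, and 25 of the 32 genes had one (none for Kng1, Plat, Plau, Plg, Proc, Thbd and Vwf). The STAT and BCL6 core TTCNNNGAA was in 8.3% of all 32851 windows and in those of Fga, Fgb, Hgfac, Pros1 and F9, and in Hgfac it began at position -167 from the start. The T-box motif AGGTGTGA was in 1.28% of windows, and among the 32 genes in that of F7, where its complement TCACACCT began at position -183. The HNF1 motif was in 0.14% of windows and in those of F13b and Hgfac, where it crossed the start. The CEBP motif TTGCNNCAA was in 2.08% of windows and in that of Fga. The HNF4 motif CAAAGTCCA (0.475% of windows) and the sterol element TCACNCCAC (1.24%) were in none of the members' windows. No match to these letters was in the windows of F10 or Proz.

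Of the genes that flank the 3 neighbours, named after their values were seen, Pcid2 gave calls against control livers and Mcf2l gave none. Pcid2, just beyond Proz, had a log2 change of 0.54 in Bcl6 KO (adjusted p = 0.00718), 0.59 in Irs1 KO (adjusted p = 0.00369) and 0.53 in Tbx3 KO livers (adjusted p = 0.0119). Mcf2l, before F7, had 1.48 in Bcl6 KO livers with a wide error (SE 0.74, adjusted p = 0.295). F11 and Klkb1 form a second pair on chromosome 8, from 45241174 to 45294859. Beside them Mtnr1a fell in Bcl6 KO livers (log2 change -1.24, adjusted p = 0.0264), and Cyp4v3 rose in Irs1 KO livers (0.56, adjusted p = 0.0215) and in Srebf1 KO livers (0.70, adjusted p = 0.0379). Hrg, Kng2 and Kng1 lie together on chromosome 16, and their neighbour Fetub, a hepatocyte gene, rose by 0.55 in Bcl6 KO (adjusted p = 0.00797) and 0.59 in Irs1 KO livers (adjusted p = 0.00397). Beside the fibrinogen genes on chromosome 3, Lrat, a stellate cell gene, fell in Bcl6 KO, Irs1 KO and Tbx3 KO livers (log2 changes -0.75, -0.68 and -0.68; adjusted p = 0.0196, 0.0273 and 0.0387). Eif4a2, on the other side of Hrg, Kng2 and Kng1, passed in no comparison with control livers (0.18 in Bcl6 KO and -0.16 in Irs1 KO). Nor did Plrg1, on the other side of the fibrinogen genes (0.06 in Bcl6 KO and -0.05 in Irs1 KO). In all, 11 of the 32 genes lie in these 4 clusters, with gaps of at most 100000 bases.

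**Figure D2:**
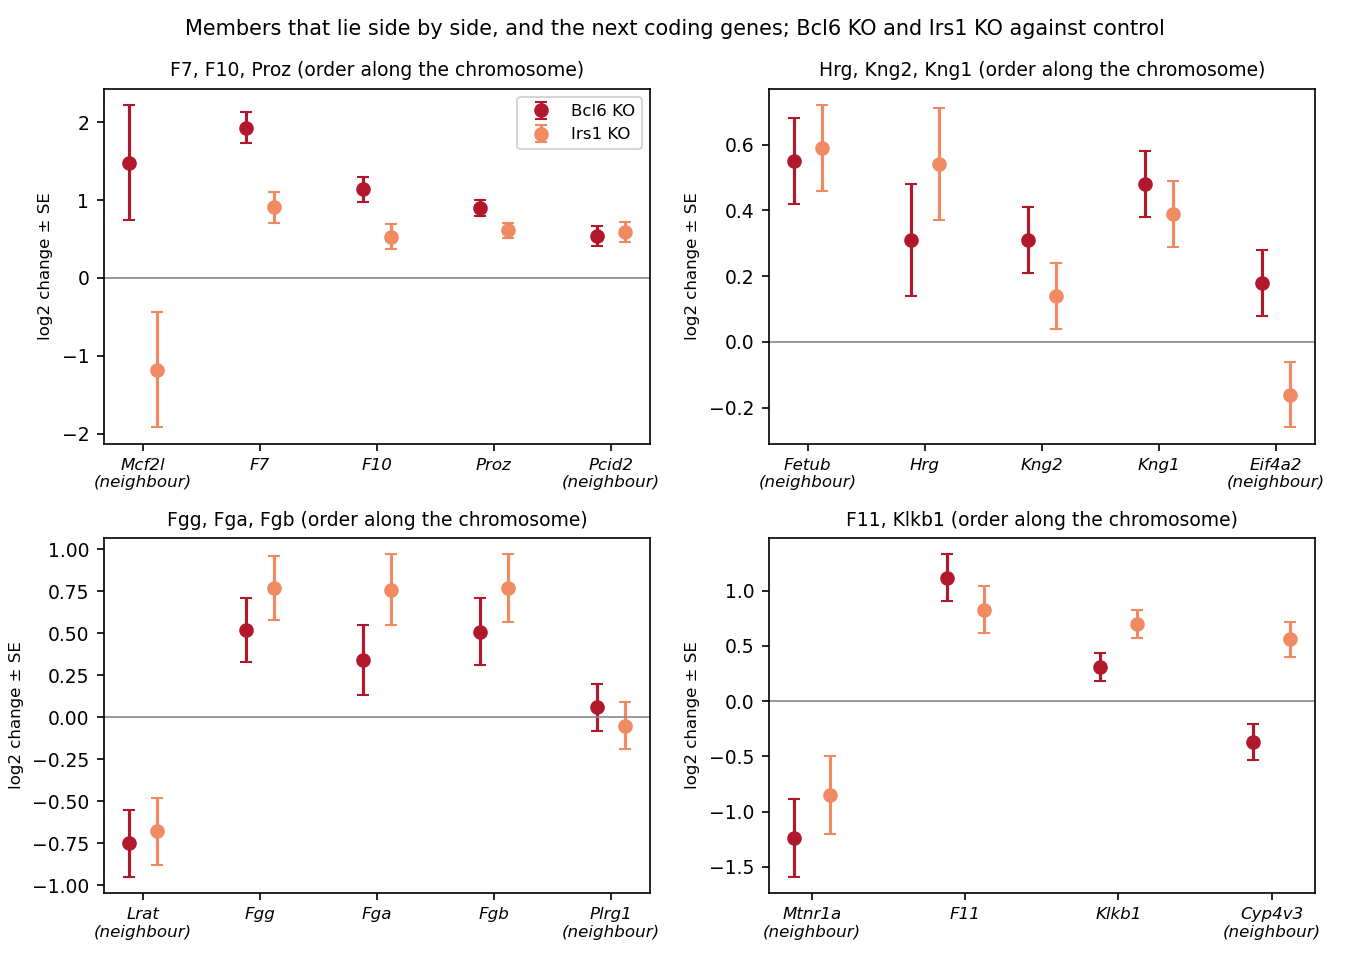
Log2 change with SE in Bcl6 KO and Irs1 KO livers relative to control livers for the 4 clusters of neighbouring genes and the gene on each side. F7 has the highest value of its cluster in Bcl6 KO livers among the clotting genes (1.93), and Lrat, beside the fibrinogen genes, is below 0 in both knockouts while the 3 fibrinogen genes are above 0.

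**Figure D3:**
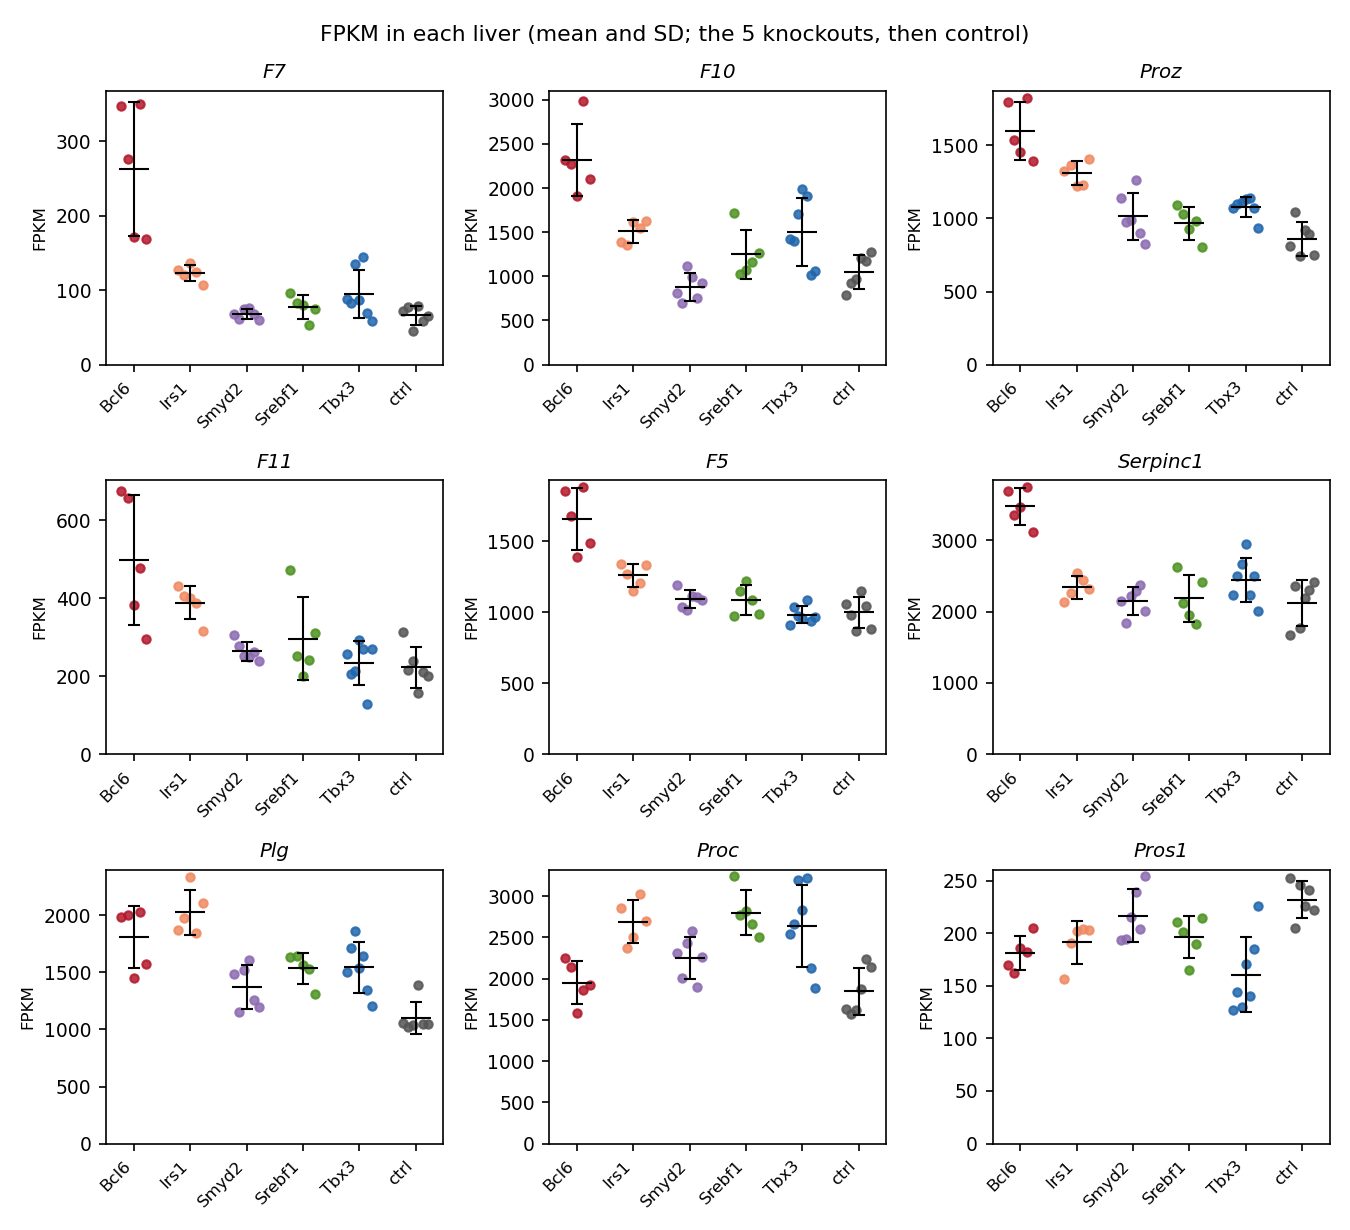
FPKM of F7, F10, Proz, F11, F5, Serpinc1, Plg, Proc and Pros1 in each liver (points) with the mean and SD, by knockout and control. F7 in Bcl6 KO livers (168 to 350 FPKM) and in Irs1 KO livers (107 to 137 FPKM) lies above the control livers (45.3 to 78.4 FPKM), and Proc in Bcl6 KO livers (1589 to 2252 FPKM) overlaps them.

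The fibrinogen chains Fga, Fgb and Fgg, which are assembled together and become fibrin, passed in Irs1 KO livers alone. Fgg had 4895 to 11639 FPKM in Irs1 KO livers (median 5922), against 3446 to 4489 FPKM (median 3682) in control livers, a log2 change of 0.77 (SE 0.19, adjusted p = 0.00713). Fgb had 4373 to 10021 FPKM (median 5076), against 2764 to 4166 FPKM (median 3217), with 0.77 (SE 0.20, adjusted p = 0.0111). Fga had 5672 to 13543 FPKM (median 6735), against 3686 to 5019 FPKM (median 4529), with 0.76 (SE 0.21, adjusted p = 0.0167). All 5 Irs1 KO livers lay above every control liver for all 3 chains, and replicate 3 was the highest each time. Without that liver Fga and Fgb no longer passed (adjusted p = 0.0774 and 0.0549), while Fgg passed in every alternative run (adjusted p = 0.00281 to 0.0386). The other knockouts were not shown to differ from Irs1 KO, since adjusted p over the 5 knockouts was 0.221, 0.382 and 0.351 for Fga, Fgb and Fgg. In Tbx3 KO livers Fgb ran from 3447 to 6083 FPKM (adjusted p = 0.0817), Fgg from 3908 to 6709 FPKM (adjusted p = 0.0849) and Fga from 3928 to 8830 FPKM (adjusted p = 0.179).

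The 3 chains varied together from liver to liver. The highest liver exceeded the lowest 3.99-fold for Fga, 3.68-fold for Fgb and 3.65-fold for Fgg, yet Fga over Fgb stayed between 1.05 and 1.61 (median 1.25) and Fgg over Fgb between 1.03 and 1.30 (median 1.15) in all 34 livers. By their digits, the values of Fga and Fgg were read as sums of several values and that of Fgb was not. The 3 chains of a liver share its library.

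**Figure D4:**
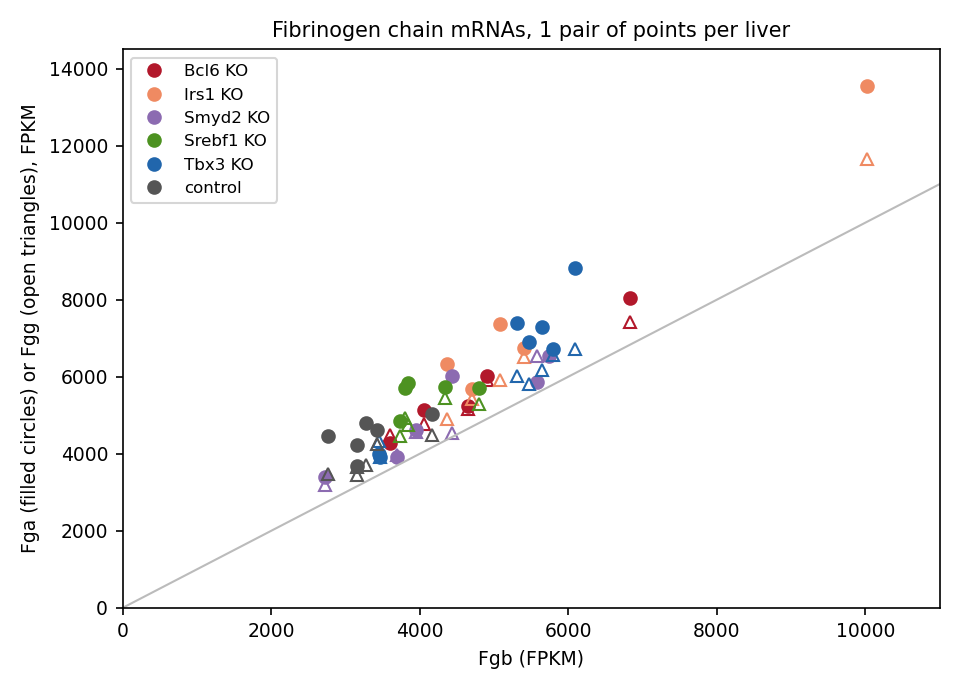
FPKM of Fga (filled circles) and Fgg (open triangles) against Fgb in each of the 34 livers, coloured by group, with the line of equality. All points lie above the line, with Fga over Fgb between 1.05 and 1.61 and Fgg over Fgb between 1.03 and 1.30, over a range of Fgb from 2725 to 10021 FPKM, and the liver at the far end is Irs1 KO replicate 3.

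Factor XIII cross-links fibrin. Its B subunit gene F13b, made by hepatocytes, had 441 to 552 FPKM in Irs1 KO livers, all above the control range of 312 to 439 FPKM, and did not pass (adjusted p = 0.147). The A subunit gene F13a1 had 0.979 to 1.89 FPKM in Irs1 KO livers (median 1.58), against 3.26 to 15 FPKM (median 4.82) in control livers. The groups did not overlap, and F13a1 fell by 1.52 on the log2 scale (SE 0.45, adjusted p = 0.0283). The call was lost under 7 of 20 alternatives, among them a pseudocount of 0.1 (log2 change -1.97, adjusted p = 0.0579) and the removal of Irs1 KO replicate 1, 2 or 4 or of sgGFP replicate 1 or 3, with adjusted p up to 0.0794.

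Among the 7 anticoagulant genes the pattern differed by member. Proz, protein Z, a cofactor for inhibition of factor X, had 1795, 1534, 1454, 1822 and 1394 FPKM in Bcl6 KO livers and 1324, 1366, 1219, 1231 and 1410 FPKM in Irs1 KO livers. Control livers had 742 to 1043 FPKM with a median of 854, below every liver of both knockouts. Proz rose by 0.90 in Bcl6 KO (SE 0.10, adjusted p = 1.13e-07) and by 0.61 in Irs1 KO (SE 0.10, adjusted p = 0.000202). In Tbx3 KO livers it had 933 to 1139 FPKM (median 1100) and passed narrowly (log2 change 0.34, SE 0.09, adjusted p = 0.0449), a call lost under 16 of 22 alternatives (adjusted p up to 0.114), 10 of them the removal of 1 liver (Tbx3 KO replicate 1 to 6, sgGFP replicate 1 or 3, or either sgLacZ liver).

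Serpinc1, antithrombin, the main inhibitor of thrombin and factor X, had 3697, 3353, 3471, 3745 and 3120 FPKM in Bcl6 KO livers, against 1670 to 2417 FPKM (median 2253) in control livers. The groups did not overlap, with a log2 change of 0.73 (SE 0.11, adjusted p = 1.3e-05). Serpind1, heparin cofactor II, had 465, 411, 411, 507 and 395 FPKM in Bcl6 KO livers and 359, 463, 418, 382 and 428 FPKM in Irs1 KO livers. Tbx3 KO livers had 344 to 447 FPKM (median 393) and control livers 221 to 333 FPKM (median 275). All livers of these 3 knockouts lay above every control liver. The log2 changes were 0.68 in Bcl6 KO (adjusted p = 0.000438), 0.58 in Irs1 KO (adjusted p = 0.00286) and 0.51 in Tbx3 KO (adjusted p = 0.0119). Smyd2 KO and Srebf1 KO livers had log2 changes of 0.51 and 0.49 that did not pass (adjusted p = 0.188 and 0.0734), and the 5 knockouts were not shown to differ from one another (adjusted p = 0.746).

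Proc, protein C, the protease that inactivates factors V and VIII, rose in Irs1 KO, Srebf1 KO and Tbx3 KO livers and not in Bcl6 KO livers. Its level was 2373 to 3024 FPKM in Irs1 KO (median 2701), 2511 to 3240 FPKM in Srebf1 KO (median 2774) and 1887 to 3216 FPKM in Tbx3 KO livers (median 2664), against 1572 to 2233 FPKM (median 1754) in control livers. Irs1 KO and Srebf1 KO livers all exceeded every control liver, and 5 of 7 Tbx3 KO livers did. The log2 changes were 0.55 in Irs1 KO (adjusted p = 0.00398), 0.61 in Srebf1 KO (adjusted p = 0.0179) and 0.51 in Tbx3 KO (adjusted p = 0.0113, or 0.114 with the 2 groups fitted alone). The Srebf1 KO change was 0.56 without replicate 1 (adjusted p = 0.0552), and that call was also lost without Srebf1 KO replicate 3, sgGFP replicate 1 or sgGFP replicate 3 (adjusted p up to 0.0605). In Bcl6 KO livers Proc had 1589 to 2252 FPKM (log2 change 0.08, adjusted p = 0.796).

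Pros1, protein S, the cofactor of activated protein C, was the only one of the 32 that fell in Tbx3 KO livers. It had 127 to 226 FPKM in Tbx3 KO livers (median 144), against 205 to 252 FPKM (median 233) in control livers, a log2 change of -0.55 (SE 0.11, adjusted p = 0.00262, or 0.0683 with the 2 groups fitted alone). In 6 of 7 livers it was below every control liver, and replicate 7 was the highest with 226 FPKM. Bcl6 KO livers had 162 to 205 FPKM and Irs1 KO livers 156 to 204 FPKM, also below every control liver, but these changes did not pass (log2 changes -0.36 and -0.28, adjusted p = 0.0617 and 0.116).

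Tfpi, tissue factor pathway inhibitor, which endothelial cells make, had 53.1 to 111 FPKM in Irs1 KO livers (median 76.2), against 73.7 to 155 FPKM (median 123) in control livers. The groups overlapped, and Tfpi fell by 0.63 on the log2 scale (SE 0.18, adjusted p = 0.0205). The call was lost under 6 of 20 alternatives, among them median scaling (adjusted p = 0.0973) and the removal of Irs1 KO replicate 3 or 4 or of sgGFP replicate 2 or 3. Thbd, thrombomodulin, which switches thrombin to the activation of protein C, had 3.20 to 11.4 FPKM in Bcl6 KO livers and 1.34 to 4.47 FPKM in control livers (adjusted p = 0.0964).

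Of the 6 fibrinolysis genes, Plg and Serpinf2 changed in the most comparisons. Plg, plasminogen, the precursor of plasmin, had 1986, 2007, 1454, 2030 and 1578 FPKM in Bcl6 KO livers and 1868, 1973, 2333, 1847 and 2106 FPKM in Irs1 KO livers. Srebf1 KO livers had 1638, 1641, 1565, 1528 and 1309 FPKM, Tbx3 KO livers 1206 to 1867 FPKM (median 1539), and control livers 1019 to 1387 FPKM (median 1047). Every Bcl6 KO and Irs1 KO liver, 4 of 5 Srebf1 KO livers and 5 of 7 Tbx3 KO livers exceeded every control liver. The log2 changes were 0.72 in Bcl6 KO (SE 0.11, adjusted p = 4.78e-05), 0.89 in Irs1 KO (SE 0.11, adjusted p = 1.02e-05), 0.49 in Srebf1 KO (SE 0.11, adjusted p = 0.044) and 0.49 in Tbx3 KO (SE 0.10, adjusted p = 0.00722, or 0.0593 with the 2 groups fitted alone). The Srebf1 KO call was lost under 15 of 20 alternatives, 9 of them the removal of 1 liver (Srebf1 KO replicate 1 to 4, sgGFP replicate 1 to 3, or either sgLacZ liver). It was 0.46 (adjusted p = 0.106) without Srebf1 KO replicate 1.

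Serpinf2, alpha-2-antiplasmin, which inhibits plasmin, had 289, 332, 220, 255 and 200 FPKM in Bcl6 KO livers and 265, 296, 371, 259 and 282 FPKM in Irs1 KO livers. Tbx3 KO livers had 182 to 250 FPKM (median 211) and control livers 115 to 180 FPKM (median 173). All livers of the 3 knockouts lay above every control liver. The log2 changes were 0.68 in Bcl6 KO (adjusted p = 0.000664), 0.88 in Irs1 KO (adjusted p = 6.08e-05) and 0.44 in Tbx3 KO (adjusted p = 0.0412), the last lost under 14 of 22 alternatives (adjusted p up to 0.192), 9 of them the removal of 1 liver (Tbx3 KO replicate 1 to 5, sgGFP replicate 1 or 2, or either sgLacZ liver). Hrg, histidine-rich glycoprotein, which binds plasminogen and heparin, had 1422 to 1880 FPKM in Irs1 KO livers, against 737 to 1448 FPKM in control livers (log2 change 0.54, SE 0.17, adjusted p = 0.0369), a call lost under 10 of 20 alternatives (adjusted p up to 0.112), 7 of them the removal of 1 liver (Irs1 KO replicate 2 to 5, sgGFP replicate 1 or 3, or sgLacZ replicate 2). Cpb2, a carboxypeptidase that slows fibrinolysis, had 773 to 966 FPKM in Bcl6 KO livers and 523 to 817 FPKM in control livers and did not pass (adjusted p = 0.068).

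Both plasminogen activators were at low levels. Plat, tissue plasminogen activator, had 0.296 to 0.859 FPKM in Irs1 KO livers (median 0.475), against 2.25 to 7.45 FPKM (median 3.55) in control livers. The groups did not overlap, and Plat fell by 1.64 on the log2 scale (SE 0.37, adjusted p = 0.00448). With a pseudocount of 0.1 the log2 change was -2.62, since the added 1 understates changes at these levels. Plau, urokinase, had 1.28 to 4.36 FPKM in Irs1 KO livers, which overlapped the control range of 2.02 to 22.3 FPKM, and did not pass (adjusted p = 0.143).

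Vwf, von Willebrand factor, the carrier of factor VIII and an adhesive protein for platelets, had 22.2 to 53.1 FPKM in Bcl6 KO livers (median 24.4), against 11.9 to 18.9 FPKM (median 17.0) in control livers. The groups did not overlap, and the log2 change was 0.84 (SE 0.20, adjusted p = 0.00602, or 0.0646 with the 2 groups fitted alone). In Irs1 KO livers Vwf had 8.90 to 16.4 FPKM (log2 change -0.44, adjusted p = 0.154).

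Markers of other cell types were set beside these low genes, with mixed counts. Over all tested genes, 2.95% rose and 3.19% fell in Bcl6 KO livers, and 3.24% and 7.61% in Irs1 KO livers. In Tbx3 KO livers the shares were 1.17% and 1.37%. The median log2 change of the endothelial markers was 0.29 in Bcl6 KO and -0.06 in Irs1 KO livers. It was 0.23 and -0.75 for macrophage markers, and -0.38 and -0.67 for stellate cell markers. Over all genes it was -0.07 and -0.12. Of 14 endothelial markers, 4 rose and 0 fell in Bcl6 KO livers, with a summed level of 1275 to 1502 FPKM, and 0 rose and 2 fell in Irs1 KO livers, with 902 to 1234 FPKM, against 1042 to 1295 FPKM in control livers. Of 12 stellate cell markers, 1 rose and 7 fell in Irs1 KO livers (sum 1271 to 1534 FPKM), and 0 rose and 3 fell in Tbx3 KO livers (sum 1023 to 2304 FPKM), against 1536 to 2411 FPKM in control livers. Of 12 macrophage markers, 0 rose and 3 fell in Irs1 KO livers (sum 811 to 1409 FPKM), against 1092 to 2130 FPKM in control livers. Of 7 cholangiocyte markers, 1 fell in Bcl6 KO and 1 in Irs1 KO livers, with sums of 470 to 1144 FPKM in Bcl6 KO and 296 to 555 FPKM in Irs1 KO livers, against 730 to 3080 FPKM in control livers. Of 10 platelet and megakaryocyte markers, 8 were tested and 0 passed in Bcl6 KO or Irs1 KO livers. Their summed level was 20.3 to 28.5 FPKM in Bcl6 KO and 14.1 to 24.0 FPKM in Irs1 KO livers, against 11.1 to 24.3 FPKM in control livers. The part of these cell types in the values of Vwf, F13a1, Plat and Tfpi was not tested.

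**Figure D5:**
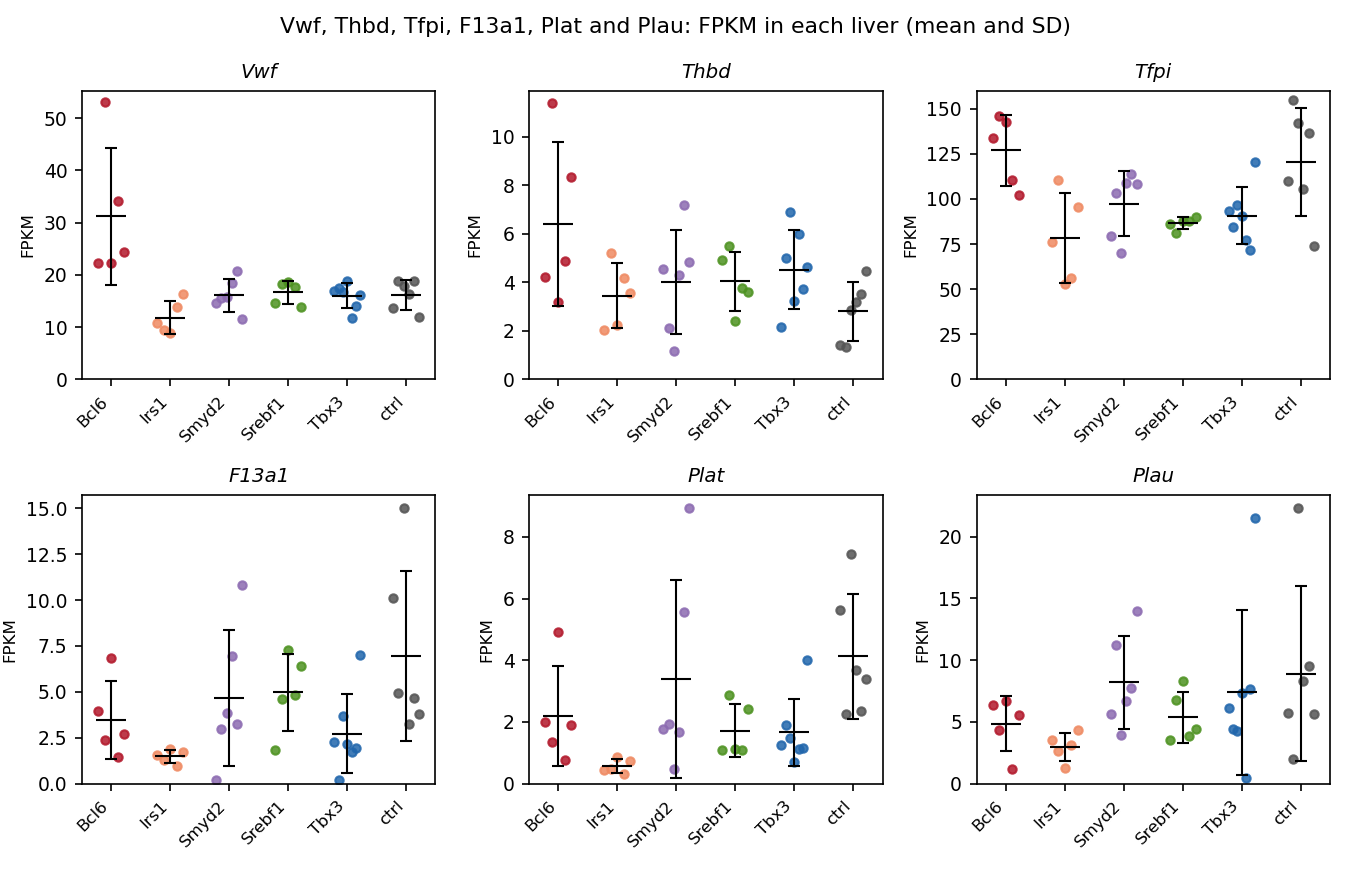
FPKM of Vwf, Thbd, Tfpi, F13a1, Plat and Plau in each liver (points) with the mean and SD, by knockout and control. Vwf lies higher in Bcl6 KO livers (22.2 to 53.1 FPKM) than in control livers (11.9 to 18.9 FPKM), and Plat and F13a1 lie lower in Irs1 KO livers than in every control liver.

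Hgfac, hepatocyte growth factor activator, a secreted protease related to factor XII, lies on chromosome 5 from 35041509 to 35048461. It had 1935, 1920, 1498, 1738 and 1369 FPKM in Bcl6 KO livers and 1163, 993, 1235, 1163 and 1171 FPKM in Irs1 KO livers. Tbx3 KO livers had 643 to 1737 FPKM (median 1271), and control livers 533 to 927 FPKM (median 894). Bcl6 KO and Irs1 KO livers all exceeded every control liver, as did 6 of 7 Tbx3 KO livers, the exception being replicate 7 with 643 FPKM. The log2 changes were 1.09 in Bcl6 KO (SE 0.17, adjusted p = 4.81e-05), 0.53 in Irs1 KO (SE 0.17, adjusted p = 0.0417) and 0.63 in Tbx3 KO (SE 0.16, adjusted p = 0.0263). The Irs1 KO call was lost under 10 of 20 alternatives (adjusted p up to 0.125), 6 of them the removal of Irs1 KO replicate 1, 3, 4 or 5, sgGFP replicate 3 or sgLacZ replicate 1. The Tbx3 KO call was lost under 6 of 22 (adjusted p up to 0.174), 5 of them the removal of Tbx3 KO replicate 2, 3 or 5, sgGFP replicate 3 or sgLacZ replicate 1. Without Tbx3 KO replicate 7, 11 of the 32 genes were higher and 3 lower in Tbx3 KO livers. The share of all genes in that run was not counted.

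The knockouts were then compared with each other, without the control livers in the contrast. By limma's F test 18 of the 32 genes differed among the 5 knockouts, where 14.5% of all genes did. The lowest adjusted p values were those of F7 (2e-07), F5 (3.09e-07), F10 (4.15e-06), Proz (1.23e-05) and Serpinc1 (6.83e-05). Between Bcl6 KO and Irs1 KO livers, 9 of the 32 were higher and 1 lower in Bcl6 KO (11.3% of all genes differed). The genes higher in Bcl6 KO were Vwf (log2 difference 1.28, adjusted p = 3.78e-05), F7 (1.02, adjusted p = 0.00123), Tfpi (0.73), F10 (0.61), Serpinc1 (0.57), Hgfac (0.55), F2 (0.54), F8 (0.47) and F5 (0.39). Proc was lower in Bcl6 KO than in Irs1 KO livers (-0.47, SE 0.13, adjusted p = 0.0144). Proz, with larger changes against control in Bcl6 KO, was not shown to differ between the 2 knockouts (0.28, adjusted p = 0.0825), nor were Klkb1 (-0.39, adjusted p = 0.068) and Fga (-0.42, adjusted p = 0.231).

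F7, F10, F5, F2, Vwf and Serpinc1 were also higher in Bcl6 KO livers than in each of the other 3 knockouts. So were F11 and Proz, while F3 passed in none of these contrasts. Against Smyd2 KO, 12 genes were higher and 0 lower (5.83% of all genes differed), with F7 at 1.86 (adjusted p = 4.91e-08) and F10 at 1.39 (adjusted p = 2.23e-07). Against Srebf1 KO, 11 were higher and 1 lower (8.76%), and against Tbx3 KO, 11 were higher and 1 lower (9.31%). The lower gene was Proc each time, with log2 differences of -0.53 (adjusted p = 0.00713) and -0.42 (adjusted p = 0.0202). F8, F9 and Cpb2 passed in no comparison with control livers but were higher in Bcl6 KO than in Tbx3 KO livers. Their log2 differences were 0.59 (adjusted p = 0.00561), 0.32 (adjusted p = 0.0386) and 0.39 (adjusted p = 0.0322).

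Irs1 KO livers had 5 genes higher and 0 lower than Smyd2 KO livers (4.26% of all genes differed), namely F7 (0.85), F10 (0.79), Serpinf2 (0.61), Plg (0.57) and Proz (0.38). Against Srebf1 KO livers 3 were higher (1.6%), namely Serpinf2 (0.61), Proz (0.44) and Kng1 (0.39). Against Tbx3 KO livers 4 were higher (2.81%), namely F11 (0.77), Klkb1 (0.48), Plg (0.40) and F5 (0.36). Smyd2 KO and Srebf1 KO livers differed in 0 of the 32 genes (0.0777% of all genes), as did Srebf1 KO and Tbx3 KO livers (0.943%). Smyd2 KO differed from Tbx3 KO livers in F10, which was lower (-0.74, adjusted p = 0.00864), and in Pros1, which was higher (0.45, adjusted p = 0.0293), where 0.902% of all genes differed.

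In Smyd2 KO livers, where no member passed, 7 of the 32 had an unadjusted p under 0.05 in the limma fit, and 7.17% of all genes did. They were Klkb1, F3, Proc, Proz, Serpind1, Plg and Serpinf2. Of these, Serpind1 had 309 to 529 FPKM in Smyd2 KO livers, against 221 to 333 FPKM in control livers, and Plg had 1152 to 1611 FPKM, against 1019 to 1387 FPKM (log2 change 0.32).

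Of the 7 vitamin K dependent factors (F2, F7, F9, F10, Proc, Pros1 and Proz), 4 rose in Bcl6 KO and 4 in Irs1 KO livers, and none fell in either. Of all 32 members, 15 rose in Bcl6 KO and 16 in Irs1 KO livers, so this subset was not set apart from the list. Over all tested genes 2.95% rose in Bcl6 KO and 3.24% in Irs1 KO livers. Tbx3 KO livers had 2 higher and 1 lower, Srebf1 KO 1 higher and Smyd2 KO 0.

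A list of 26 other genes of the pathway, of which 25 were tested, holds receptors, inhibitors and secretion or carboxylation enzymes. In Bcl6 KO livers 4 rose and 3 fell, where 2.95% and 3.19% of all tested genes did. Serpina10, the inhibitor for which protein Z is the cofactor, had 1337 ± 344 FPKM in Bcl6 KO livers (SD, n = 5) and 522 ± 94.2 FPKM in control livers (log2 change 1.34, adjusted p = 6.81e-05). Pzp, a broad protease inhibitor, had 7003 ± 587 FPKM in Bcl6 KO livers and 4711 ± 304 FPKM in control livers (0.57, adjusted p = 6.95e-06), and Habp2, a protease that can activate factor VII, rose by 0.39 (adjusted p = 0.00388). F2r, a thrombin receptor, fell to 42.0 ± 5.82 FPKM in Bcl6 KO livers, against 98.6 ± 15.6 FPKM in control livers (log2 change -1.21, adjusted p = 1.44e-06), and Vkorc1l1, a vitamin K reductase, had a log2 change of -0.41 (adjusted p = 0.0153).

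In Irs1 KO livers 4 of the 25 rose and 6 fell, where 3.24% and 7.61% of all tested genes did. Anxa2, a cell surface receptor for plasminogen and its activator, had 23.5 ± 8.78 FPKM in Irs1 KO livers, against 138 ± 50.3 FPKM in control livers (log2 change -2.50, adjusted p = 0.000168), and its partner S100a10 had a log2 change of -0.84 (adjusted p = 0.0054). Serping1, the inhibitor of contact proteases, rose by 0.53 (adjusted p = 0.00189). Lman1, the cargo receptor for factors V and VIII, rose by 0.47 (adjusted p = 0.00215), and Pzp by 0.37 (adjusted p = 0.0028). In Srebf1 KO livers Lman1 rose (0.43, adjusted p = 0.0352) and no other gene of the list passed. Tbx3 KO and Smyd2 KO livers had 0 called. Of all tested genes, 0.197% rose and 0.181% fell in Srebf1 KO, 1.17% and 1.37% in Tbx3 KO and 0% in Smyd2 KO.

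Other lists of secreted liver proteins gave different counts. Of 22 complement genes tested, 5 rose and 6 fell in Bcl6 KO livers (median log2 change 0.15), and 4 rose and 0 fell in Irs1 KO livers (median 0.28). Of 15 acute phase genes, 5 rose and 0 fell in Bcl6 KO livers (median 0.47), and 2 rose and 2 fell in Irs1 KO livers (median -0.36). In Srebf1 KO, Tbx3 KO and Smyd2 KO livers 0 genes of either list passed. Over all tested genes, 2.95% rose and 3.19% fell in Bcl6 KO livers, and 3.24% and 7.61% in Irs1 KO livers. The shares were 0.197% and 0.181% in Srebf1 KO, 1.17% and 1.37% in Tbx3 KO and 0% in Smyd2 KO livers.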

How the data were processed

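Per the labels' protocols, total liver RNA (TRIzol, RNeasy) went into stranded SMARTer libraries. The values the authors deposited are FPKM per gene symbol, 1 column per liver, and all columns matched a sample. Counting used featureCounts 1.6.4, per the submitters' processing notes, which name the builds mm10 and GRCh38 without roles. The sources used here give no aligner, annotation or strand setting, so reads of overlapping opposite-strand genes may be mixed for 7 members (F8, F5, F13a1, Fgg, Serpinc1, Serpind1 and Plg).

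Here log2(FPKM + 1) of the 19295 genes that reached 1 FPKM in at least 5 libraries was fitted with limma 3.58.1 in R 4.3.3, with all 34 livers in 6 groups and an intensity trend, two-sided, with Benjamini-Hochberg adjustment over all tested genes and a threshold of 0.05. The log2(FPKM + 1) scale understates changes of low genes. An F test and 10 pairwise contrasts compared knockouts, and a fit with separate controls compared sgLacZ with sgGFP. The script was tested on simulated data with 200 changed genes. Alternatives were 9 settings and leaving out each liver. Replicate numbers did not pair livers (median correlation -0.10 to 0.01). Livers were grouped by label. Full values are given for the 12 members with the smallest adjusted p, other members by range, and other pathway genes at most 5 per comparison. The members and lists were chosen with earlier results of these data known.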

Additional observations from a re-analysis of the deposited data

Results flagged for a closer look

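In each knockout and in the 6 pooled control livers, the highest and the lowest log2 value of every member were set against the others by Dixon's test. Of 192 groups of values, 11 held a liver far from the rest, where chance gives about 1 in 20. Among Tbx3 KO livers, replicate 7 was low for Hgfac, with 643 FPKM against 1187 to 1737 in the other 6, and for Proz, with 933 against 1071 to 1139. Replicate 6 was low for F11, with 129 FPKM against 206 to 292. Among Irs1 KO livers, replicate 3 was high for Fgb, with 10021 FPKM against 4373 to 5400, and low for F8, with 269 against 358 to 394. Replicate 1 was low for Pros1, with 156 FPKM against 190 to 204, and replicate 2 for Hgfac, with 993 against 1163 to 1235. Srebf1 KO replicate 5 was low for Fga, with 4838 FPKM against 5697 to 5839. Smyd2 KO replicate 5 was high for Kng2, with 1233 FPKM against 1006 to 1081. Among the 6 control livers, sgGFP replicate 2 was high for Kng2, with 1260 FPKM against 926 to 1032 in the other 5, and sgGFP replicate 4 for Plg, with 1387 against 1019 to 1053.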

How the results depend on the processing

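The 43 calls of members against control gave 873 values under the alternatives, of which 751 stayed past the threshold, 122 fell short of it and 0 reversed. A total of 22 calls held under every alternative run. Counts of members higher or lower moved by over 1.5 times as follows. Irs1 KO had 16 higher, and 10 with quantile normalization. Srebf1 KO had 2 higher, and 1 with no filter, median scaling, quantile normalization, the 2 groups alone, sgGFP livers alone as control or no intensity trend. Tbx3 KO had 6 higher and 1 lower, and 1 higher and 0 lower with the 2 groups alone. Bcl6 KO had 0 lower, and 1 with the 2 groups alone. With the replicate number as a block, Tbx3 KO had 14 higher and 3 lower and Bcl6 KO had 1 lower, although the numbers do not pair the livers. Only Tbx3 KO has a replicate 7, so this block also takes that liver out of the Tbx3 KO comparison. It is thus not independent of the run without replicate 7. Apart from this, the cause of these shifts was not tested. Leaving out 1 liver gave 14 to 16 higher and 0 to 1 lower in Bcl6 KO and 11 to 16 higher and 1 to 3 lower in Irs1 KO. The single lower gene in Bcl6 KO appeared without replicate 5, and Irs1 KO had 1 lower without its replicate 4 or sgGFP replicate 3. Srebf1 KO ranged from 0 to 3 higher, with 0 without its replicate 1, sgGFP replicate 1 or sgGFP replicate 3, and 1 without its replicate 2, 3 or 4, sgGFP replicate 2 or sgLacZ replicate 1. Tbx3 KO ranged from 3 to 11 higher and 1 to 3 lower. It had 3 higher without its replicate 2, 3 or 5 or sgLacZ replicate 1, and 11 higher and 3 lower without replicate 7. Smyd2 KO had 0, and the F test 15 to 19. Shares of all genes were not counted for the runs that left out 1 liver. Nor were they for the other settings, the block included, apart from median scaling and quantile normalization. How depth limits the genes under 20 FPKM was not tested.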
